A study of Mus musculus with 6 samples.

Results

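The genes described here are 10 of the 32285 genes counted in single brain cells: Id1, Id2, Id3 and Id4, the BMP ligand genes Bmp4 and Bmp6, the type I receptor gene Bmpr1a, the inhibitory Smad genes Smad6 and Smad7, and Ranbp3l. They were chosen by values in these same libraries, namely which Id gene each cell class carried and how the groups differed in astroglia, Ranbp3l included, so levels by class and group differences in astroglia are given as a description with no test. Cells came from cortex and subventricular zone (SVZ, the ventricle wall in which neural stem cells persist) of mice aged 8 to 12 weeks. They were sorted by flow cytometry for an endothelial fraction (CD31+Glast-CD45-) and a neural stem and progenitor fraction (CD31-Glast+CD45-). There were 6 libraries in 3 groups of 2: Cx43ECiKO mice, in which deletion of connexin 43 (gene Gja1) is directed at endothelium and whose samples are titled Vecad; Cx43GlastiKO mice, in which it is directed at Glast-expressing glia; and control Cx43flox/flox mice. The agent that induced deletion and the number of mice behind a library are not given in the sources used here. The study's title places connexin 43 between vessels and neurogenesis in the SVZ.

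Bone morphogenetic proteins are secreted ligands that join a type I receptor such as BMPR1A with a type II receptor. The receptors phosphorylate Smad1, Smad5 and Smad9, which enter the nucleus with Smad4 and switch on target genes, first among them the Id genes and the inhibitory Smad6 and Smad7. Id proteins have a helix-loop-helix region but no DNA-binding region, and they hold E proteins such as those of Tcf3, Tcf4 and Tcf12 away from partners such as Olig1 and Olig2. In the adult SVZ BMP signalling is known for keeping neural stem cells quiescent and for favouring astrocytes over neurons. In vessels BMP9 and BMP10 of the blood act through ACVRL1 and endoglin. RANBP3L is a Ran-binding protein described in mouse cells as exporting BMP-activated Smads from the nucleus.

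The libraries held 1735247 and 5164001 UMIs (unique molecular identifiers, each standing for 1 captured RNA molecule) in ECiKO replicates 1 and 2, 2642312 and 14859187 in GlastiKO, and 4056910 and 9775060 in control. Replicates 1 were 90.4 to 94.5% endothelial, and replicates 2 held nearly all astroglia and oligodendrocytes. The median depth of cells in ECiKO replicate 2 was 786 UMIs, against 8028 or more in the other libraries numbered 2. Of the 7433 barcodes 6274 were used, and the 6 libraries shared 1 barcode. Levels are CPM, a gene's UMIs per 1000000 UMIs summed over a class in a library, for classes with at least 20 cells, with 95% exact Poisson intervals that cover counting error only. The kit counts 3' ends, so a UMI is a molecule whatever the length of its gene. Gja1, the targeted gene, lay within a narrow range of CPM in astroglia, and both ECiKO libraries lay above the others in endothelial cells: astroglia had 2438, 2493 and 2559 CPM in ECiKO, GlastiKO and control replicate 2, and endothelial cells had 225 and 209 CPM in ECiKO, 139 and 137 in GlastiKO and 91.2 and 111 in control. The 3' tags check the deletion only if they lie within the deleted part, which the sources used here do not give. Groups are therefore named by their labels.

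Promoters of the members that carry the following results are shown because Id genes and inhibitory Smads are read out by Smads at short motifs near their start sites. The windows span 250 bases before to 50 after the RefSeq start on GRCm38.p6 and were found for 8 of the 10 members (Smad6 at chr9:64022010-64022309 on the minus strand, Id4 at chr13:48260866-48261165 and Ranbp3l at chr15:8967699-8967998, both on the plus strand). Capitals mark GTCTAGAC in Smad6, the palindrome bound by Smad3 and Smad4, and GGCGCC in Id4, the GC-rich form bound by Smad1 and Smad5.
Smad6: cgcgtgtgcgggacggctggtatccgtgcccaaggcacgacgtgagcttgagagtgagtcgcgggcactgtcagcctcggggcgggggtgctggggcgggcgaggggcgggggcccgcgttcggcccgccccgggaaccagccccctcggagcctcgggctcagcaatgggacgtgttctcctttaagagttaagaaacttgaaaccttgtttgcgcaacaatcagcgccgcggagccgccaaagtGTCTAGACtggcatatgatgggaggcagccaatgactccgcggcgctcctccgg
Id4: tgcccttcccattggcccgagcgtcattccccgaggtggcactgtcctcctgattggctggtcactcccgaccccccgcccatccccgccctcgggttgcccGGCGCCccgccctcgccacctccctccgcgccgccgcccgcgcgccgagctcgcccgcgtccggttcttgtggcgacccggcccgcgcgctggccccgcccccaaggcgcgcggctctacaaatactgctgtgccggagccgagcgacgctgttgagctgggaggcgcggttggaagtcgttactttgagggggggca
Ranbp3l: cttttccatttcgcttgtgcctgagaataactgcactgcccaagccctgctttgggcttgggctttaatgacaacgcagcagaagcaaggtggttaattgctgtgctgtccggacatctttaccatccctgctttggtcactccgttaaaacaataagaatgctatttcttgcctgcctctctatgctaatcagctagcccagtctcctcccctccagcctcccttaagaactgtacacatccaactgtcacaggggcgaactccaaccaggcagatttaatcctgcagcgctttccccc
Of 7 motifs searched on both strands, GTCTAGAC was in 0.213% of 32851 promoters of the same length and, among the 8, in that of Smad6 only, with its first base at -4 from the start site. GGCGCC was in 11.9% of promoters and in those of Id2, Id4 and Bmpr1a, and GTCTG in 49.6% and in those of Id3 and Bmp6. CANNTG, the E box bound by E proteins, was in 72.3% of promoters and in 5 of the 8, that of Ranbp3l included. CCAAT was in 37.4% and in 4 of the 8, while TGACGT (7.51%), which is part of TGACGTCA (1.79%), was in none. The Ranbp3l window held none of the 3 Smad motifs. A match is a description of letters and not a measured site.

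Endothelial cells carried Id1 and Id3, nearly no Id4, and little Id2. Id1 (chr2:152736251-152737410, plus strand) stood at 1103 and 445 CPM in ECiKO replicates 1 and 2, 1045 and 1064 in GlastiKO, and 1214 and 767 in control. Id3 (chr4:136143497-136145755, plus strand) stood at 733 and 628 CPM in ECiKO, 740 and 1176 in GlastiKO, and 979 and 1074 in control. The lowest Id1 value belongs to the 21 endothelial cells of ECiKO replicate 2 (17 UMIs, interval 259 to 712 CPM). Id1 made up 57.7, 55.9 and 52.6% of the Id UMIs in ECiKO, GlastiKO and control replicates 1, and 38.6, 45.5 and 38.3% in replicates 2. Id3 thus led in all 3 libraries numbered 2, which held 21, 64 and 44 endothelial cells, and Id1 in those numbered 1. The order of these genes so went with the library number. The exact intervals of the Id1 and Id3 shares overlapped in ECiKO replicate 2 (24.4 to 54.5 and 38.8 to 69.6%). They overlapped in GlastiKO replicate 2 too (41.0 to 50.1 and 45.7 to 54.9%). In control replicate 2 they did not (32.1 to 44.8 and 47.0 to 60.1%). Id2 (chr12:25093799-25097140, minus strand) ranged from 74.4 to 119 CPM over the 6 libraries. Id4 (chr13:48261228-48266026, plus strand) had 2 and 0 UMIs in ECiKO, 1 and 0 in GlastiKO, and 30 and 5 in control.

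Astroglia, the class of Slc1a3, Aqp4 and Aldoc to which astrocytes and quiescent neural stem cells belong, carried Id2 and Id4, with less Id3 and little Id1. Id2 had 632, 561 and 794 CPM in ECiKO, GlastiKO and control replicate 2, and Id4 had 432, 617 and 365 CPM. Id2 led in ECiKO and control (47.2 and 52.3% of Id UMIs) and Id4 in GlastiKO (41.8%, against 38.0% for Id2). Id3 had 229, 255 and 320 CPM and Id1 48.3, 42.1 and 38.6 CPM, the lowest of the 4 in each library. The summed Id level was 1341, 1475 and 1518 CPM in astroglia, and 1151 to 2337 CPM in endothelial cells.

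The other classes differed again in their Id genes. Pericytes, the mural cells of capillaries, had Id3 above Id1: 441 and 455 CPM of Id3 in GlastiKO replicates 1 and 2 and 230 in control replicate 1, against 145, 147 and 192 CPM of Id1 in the same libraries. In the control library these intervals overlap (161 to 319 and 129 to 274 CPM). Neuroblasts had Id4 as their leading Id gene, with 185 CPM in ECiKO and 214 in GlastiKO replicate 2 (34 and 60 UMIs), and no Id3 UMI in 49 and 30 cells, with upper limits of 20.1 and 13.1 CPM. RNA of the 10 cell cycle markers summed to 5088 and 3073 CPM in these neuroblasts, all 10 detected in both libraries, and Hmgb2 and Top2a stand with Sox11 and Sox4 among the leading genes of the cluster with most of them. Choroid plexus cells carried all 4, led by Id3 with 277 and 393 CPM in the same libraries. Oligodendrocytes had each Id gene under 10 CPM in all 3 libraries, with an Id sum of 27.8, 17.2 and 18.1 CPM in ECiKO, GlastiKO and control. The 3 libraries of oligodendrocytes are the deepest class sums, so these low values are well counted: Id2 rests on 36, 64 and 28 UMIs. Astroglial marker RNA summed to 267, 147 and 166 CPM in these oligodendrocytes, with all 10 markers detected. Its part in their Id values was not tested.

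**Figure D1:**
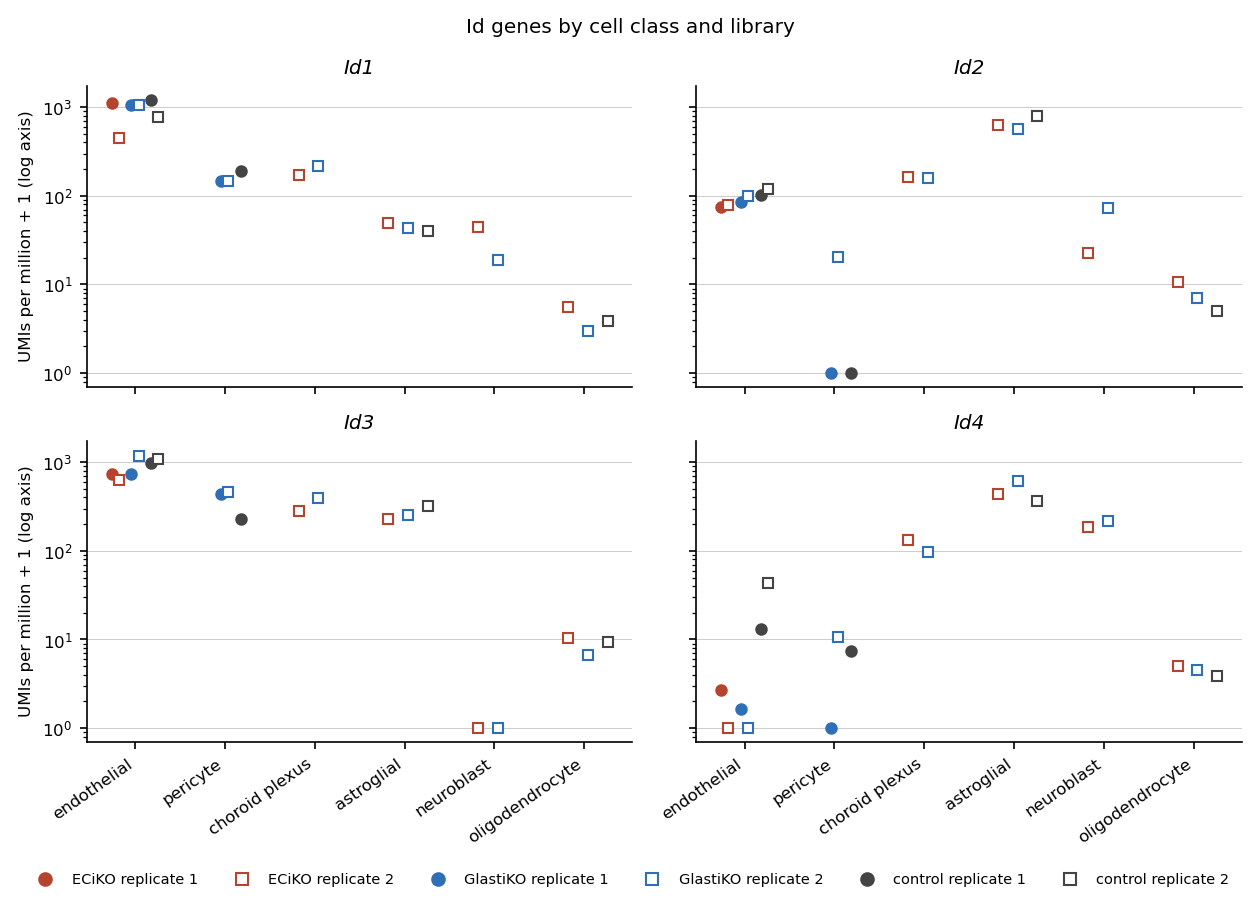
CPM + 1 of the 4 Id genes in each cell class on a log axis, 1 point per library with at least 20 cells, ECiKO left of GlastiKO and control. Counting intervals are not drawn. Id1 stands at 445 to 1214 and Id3 at 628 to 1176 CPM in endothelial cells, Id2 and Id4 between 365 and 794 CPM in astroglia, and all 4 are under 10 CPM in oligodendrocytes.

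Bmp4 was carried by pericytes and was at 0 in astroglia. BMP4 is a ligand known in the SVZ niche for turning progenitors towards glia. Bmp4 (chr14:46383520-46390669, minus strand) had 105 and 117 CPM in pericytes of GlastiKO replicates 1 and 2 and 211 in those of control replicate 1, from 16, 24 and 33 UMIs (intervals 60.2 to 171, 75.2 to 175 and 145 to 296). The 2 classes of the vessel wall thus differed, since endothelial cells had 0 to 9.76 CPM from 8 UMIs over 6 libraries. In astroglia there was no Bmp4 UMI in ECiKO, GlastiKO or control replicate 2, with upper limits of 9.37, 1.71 and 2.01 CPM. Choroid plexus cells had 26.2 CPM in ECiKO and 11.6 in GlastiKO, and oligodendrocytes 1.13 CPM or less.

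Bmp6 had no UMI in endothelial cells of the 4 libraries labelled ECiKO and GlastiKO, and 39 and 3 UMIs in control replicates 1 and 2 (15.6 and 25.6 CPM; intervals 11.1 to 21.3 and 5.27 to 74.7). BMP6 is a ligand that liver endothelium makes to set hepcidin, the hormone of iron balance. The gene lies at chr13:38345107-38500302 on the plus strand. Elsewhere Bmp6 had 30.0 and 20.8 CPM in choroid plexus cells of ECiKO and GlastiKO replicate 2, no UMI in pericytes, and 10.2, 5.08 and 2.72 CPM in astroglia of ECiKO, GlastiKO and control replicate 2 (4, 11 and 5 UMIs). A floor of 3 counts over each group's summed endothelial UMIs was 2.43 CPM in ECiKO and 1.72 CPM in GlastiKO. The summed control value of 16.1 CPM stood 6.61-fold and 9.34-fold above these floors. The folds leave out the counting error of control, so they are a description and no lower bounds. No test is given for Bmp6, since it passed the low-count filter through the control libraries alone and could then only be lower in the others. The comparisons share the control libraries. Of the 42 UMIs 35 lay in a cluster of 34 cells led by Plvap, Igfbp3 and Plpp1, 31 of them from control replicate 1, 1 from control replicate 2, 2 from GlastiKO replicate 1 and 0 from ECiKO. The remaining 7 UMIs were in 2 other cells of control replicate 1. Without that cluster, or without replicate 1 of any one group, the gene did not pass the low-count filter. The difference between groups and the presence of those cells cannot be told apart, nor can fewer cells and less RNA per cell in such sums.

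**Figure D2:**
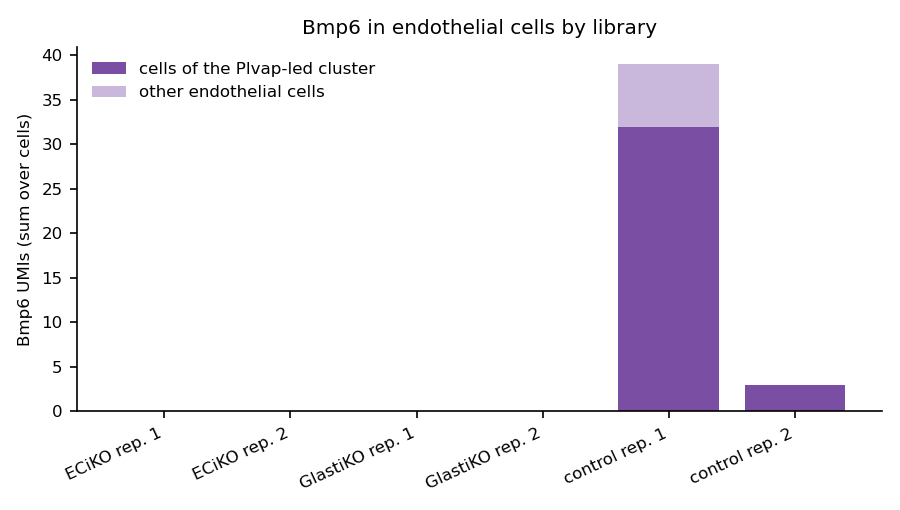
Bmp6 UMIs summed over endothelial cells of each library, ECiKO, GlastiKO and then control, with the cells of the Plvap-led cluster in dark colour. All 42 UMIs stand in the control libraries, 32 of the 39 of replicate 1 and all 3 of replicate 2 in that cluster.

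Those Plvap-led cells of control replicate 1 also differed from the other endothelial cells of the same library in further members, which is a description since the cells were set apart by their expression, although the 10 members did not enter the clustering. They had 164 CPM of Id4 (28 UMIs) against 0.859 in the 674 other cells, so 28 of the 30 endothelial Id4 UMIs of this library were theirs. Smad6 stood at 164 CPM against 51.1, Id3 at 1593 against 934, and Id1 at 838 against 1242. The single such cell of control replicate 2 held 5 Id4 UMIs, all those of endothelial cells in its library.

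Leaving out Bmp6, for which no test is given, no member and no other pathway gene passed the test between groups in endothelial cells. In ECiKO against control 19 of 8622 genes were called (0.22%; 0.0232% higher and 0.197% lower) and 0 of the 5 other members tested. In GlastiKO 26 genes were called (0.302%; 0.0928% higher and 0.209% lower), 0 of these 5 among them. Id4, Bmp4, Bmpr1a and Ranbp3l did not pass the low-count filter. The 2 libraries of a group were fitted as replicates, although libraries numbered 1 and 2 differ in cell make-up. The log2 fold changes of Id1 were -0.23 ± 0.277 in ECiKO and 0.09 ± 0.268 in GlastiKO (SE, n = 2 libraries per group), and those of Id3 -0.56 ± 0.285 and -0.07 ± 0.270. Id3 in ECiKO had an unadjusted p of 0.0473 and an adjusted p of 0.999942 (edgeR), and both its libraries lay under both control libraries. Id2 had -0.48 ± 0.335 and -0.23 ± 0.305, Smad6 -0.23 ± 0.419 and -0.19 ± 0.385, and Smad7 0.36 ± 0.291 and -0.11 ± 0.274, all with an adjusted p of 0.999942 or 0.99998. Single libraries moved these values: in ECiKO Id1 was at -1.42 without ECiKO replicate 1, 0.20 without ECiKO replicate 2 and 0.24 without control replicate 1, Smad6 at -1.16 without ECiKO replicate 1, and Smad7 at 1.09 without control replicate 1. In GlastiKO Id1 ranged from -0.21 to 0.56, Id3 from -0.33 to 0.19, Smad6 from -0.63 to -0.10 and Smad7 from -0.39 to 0.61 on leaving out 1 library. Of 35 other pathway genes tested, 0 were called in either comparison (135 and 158 genes in all had an unadjusted p under 0.05), with a median log2 fold change of -0.03 in ECiKO and -0.05 in GlastiKO, beside -0.03 and 0.00 over all genes. Among the most abundant were Bmpr2 (0.06 and 0.14) and Eng (-0.23 and -0.17), receptors of vessel BMP signalling, and the E protein gene Tcf4 (-0.11 and 0.04). DESeq2 called 2 genes in each comparison, and without the Plvap-led cluster 1 and 9 were called. Without control replicate 1 the counts were 6 and 3, without ECiKO replicate 2 34 for ECiKO, without GlastiKO replicate 2 30 for ECiKO, and without GlastiKO replicate 1 12 for GlastiKO. Astroglial marker RNA in these endothelial cells summed to 6.68 and 26.2 CPM in ECiKO, 24.0 and 171 in GlastiKO and 11.2 and 93.7 in control (1 to 9 of its 10 markers detected), and its part in these values was not tested.

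Bmpr1a, the type I receptor gene, was found in glia, pericytes and neuroblasts and was near 0 in endothelial cells. It lies at chr14:34410734-34503341 on the minus strand. Astroglia had 76.2, 88.3 and 109 CPM in ECiKO, GlastiKO and control replicate 2 (30, 191 and 200 UMIs), and oligodendrocytes 29.1, 32.3 and 40.3 CPM. Pericytes had 65.8 and 142 CPM in GlastiKO replicates 1 and 2 and 57.5 in control replicate 1. Neuroblasts had 38.1 and 46.3 CPM in ECiKO and GlastiKO replicate 2 (7 and 13 UMIs), and choroid plexus cells 3.75 and 16.2 CPM. Endothelial cells held 3 UMIs in all over 6 libraries, at most 1.30 CPM in any. They carried other receptor genes of the list: Acvrl1, the type I receptor of BMP9 and BMP10, had 460 and 314 CPM in ECiKO, 454 and 478 in GlastiKO and 469 and 452 in control. Acvrl1 had 1 UMI in astroglia over the 3 libraries numbered 2. Bmpr1b, the sister gene of Bmpr1a, had 152, 203 and 207 CPM in astroglia of ECiKO, GlastiKO and control replicate 2 and no UMI in endothelial cells.

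Other pathway genes divided between the classes too. Within the libraries numbered 2, with library as a block, 38% of 12075 genes differed between astroglia and endothelial cells (edgeR, n = 3 libraries; 23.2% higher and 14.9% lower), and of 56 other pathway genes tested 16 were higher in astroglia and 15 lower. Of 11 receptor genes 2 were higher and 5 lower, among them Eng (log2 -9.84), Acvrl1 (-10.34), Tgfbr2 (-7.78) and Bmpr2 (-2.81 ± 0.189, adjusted p = 4.42e-27). Bmpr2, the type II BMP receptor, had 142, 98.5 and 91.4 CPM in astroglia of ECiKO, GlastiKO and control replicate 2 and 1020, 986 and 827 CPM in endothelial cells of the same libraries. Of 13 extracellular modulators 5 were higher and 1 lower: Htra1, a secreted protease that cuts TGF-beta family ligands and matrix (4.72), Rgma, a BMP co-receptor (5.84), and Chrdl1, a chordin-like BMP antagonist (10.44), were among the higher. Chrdl1 had no UMI in endothelial cells, Rgma 2 in these libraries and Acvrl1 1 in astroglia, so their fold changes depend on the prior count and are no bounds. Without GlastiKO replicate 2 that of Rgma was 12.04 and that of Acvrl1 -12.26. Of 9 ligand genes 5 were higher and 2 lower, the lower ones being Tgfb2 (-1.95) and Tgfb1 (-5.29). Of the Id partners, Olig1 (5.73) and Olig2 (4.75) were higher, each against 1 endothelial UMI in these libraries and at 10.92 and 10.11 without GlastiKO replicate 2, which held it, and Tcf12 (-1.11 ± 0.219, adjusted p = 9.70e-06) lower. Skil (-2.41), a Smad corepressor gene, was lower. Ski (-1.19), Smad1 (-1.03), Smurf2 (-0.93) and Hes1 (-0.64) were lower as well, but each lost its call in 2 or more other settings. Without GlastiKO replicate 2, 2723 genes were called in place of 4593.

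Oligodendrocytes differed from astroglia in 71.3% of genes in the same fit (35.6% higher and 35.7% lower; 4304 and 4305 genes, against 3526 and 5161 under RLE scaling, which put the median of all genes at -0.28). Of the 56 other pathway genes 12 were higher and 28 lower. Bmpr1b (-8.19), the follistatin-like gene Fstl1 (-8.21), Chrdl1 (-6.56), Tgfb2 (-6.45), Hes5 (-8.68) and Hes1 (-7.76) were among the lower, with edgeR adjusted p of 2.93e-40 or less. Higher were Olig1 (3.25) and Olig2 (1.54), which define the lineage, the phosphatase gene Ppm1a (1.21), Ski (0.97), Smurf2 (1.01) and Tob1 (0.86), an antiproliferative gene. Under RLE scaling each of the genes named here kept its direction and call, with Tob1 the smallest at 0.58.

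Smad6 and Smad7, both inhibitors of Smad signalling, were carried together by endothelial cells, while oligodendrocytes carried Smad7 with nearly no Smad6. Smad6 (chr9:63953076-64022059, minus strand), which acts mainly on the BMP arm, stood at 42.6 and 26.2 CPM in endothelial cells of ECiKO, 44.1 and 34.2 in GlastiKO and 58.8 and 0 in control. The value of 0 comes from 44 cells and has an upper limit of 31.4 CPM, just under the lower limits in the libraries numbered 1 (31.7, 34.3 and 49.7 CPM in ECiKO, GlastiKO and control). In astroglia Smad6 had 5.08, 2.31 and 2.72 CPM in ECiKO, GlastiKO and control replicate 2, and in oligodendrocytes 1 UMI in all. Smad7 (chr18:75367529-75395935, plus strand), which acts on the TGF-beta arm as well, was highest in oligodendrocytes with 422, 462 and 429 CPM in ECiKO, GlastiKO and control replicate 2. Endothelial cells had 313 and 392 CPM of Smad7 in ECiKO, 244 and 200 in GlastiKO and 295 and 162 in control. Astroglia had 35.6, 20.8 and 19.0 CPM of it. Oligodendrocytes thus carried the inhibitory gene Smad7 beside nearly no Id RNA, while endothelial cells carried both.

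Within the vessel tree Smad6 was higher in arterial cells. Id genes were chosen by which class carried them, so their levels by zone are given with no test. Endothelial cells of the libraries numbered 1 were put in 3 zones by 10 markers each (for example Gkn3, Sema3g and Bmx for arteries, Slc38a5 and Vwf for veins, Mfsd2a and Slc7a5 for capillaries), which left 46, 70 and 113 arterial, 38, 63 and 70 venous, and 120, 96 and 236 capillary cells in ECiKO, GlastiKO and control. In these libraries arterial cells had 117, 89.2 and 152 CPM of Smad6, venous cells 15.8, 20.7 and 11.1, and capillary cells 20.5, 33.5 and 33.2. Every arterial value lay above every capillary one. With library as a block, the log2 difference of arterial from capillary cells was 2.0997 for Smad6 (n = 3 libraries). It was 1.70 to 2.58 in 13 other settings, the one without the Plvap-led cluster among them. No test is given for this difference, since Smad6 passed the low-count filter through its arterial values alone. The comparison called 561 of 5837 genes (9.61%) by edgeR's quasi-likelihood test. In venous cells Smad6 did not pass (-0.85 ± 0.497, adjusted p = 0.420).

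Id1 had 1099, 1090 and 1454 CPM in arterial cells of ECiKO, GlastiKO and control replicate 1, 1022, 1001 and 1190 in venous cells, and 1017, 1016 and 1064 in capillary cells. Id3 had 838, 803 and 1092 CPM in arterial, 594, 662 and 1024 in venous and 696, 628 and 815 in capillary cells. Both were highest in arterial cells of each library, with log2 differences from capillary cells of 0.29 for Id1 and 0.40 for Id3, and that of Id2 was -0.10. Smad7 did not pass (0.09). Between venous and capillary cells 394 genes were called (6.75%), with neither Smad6 nor Smad7 among them. Smad7 had 214, 186 and 195 CPM in venous and 347, 226 and 323 in capillary cells of ECiKO, GlastiKO and control (-0.55 ± 0.195, adjusted p = 0.0757). The Id1 difference of venous from capillary cells was 0.09, and -0.64 without a cluster led by Klf2, Hspa1b and Klf4, genes of flow and stress. Both comparisons share the capillary cells.

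The other pathway genes of this fit included 3 higher and 2 lower in arterial cells among 31 tested, beside 5.31 and 4.3% of all genes. Tgfb2 (1.31 ± 0.167, edgeR adjusted p = 1.12e-09), a ligand gene that is also among the leading genes of the arterial cluster, had 440, 865 and 678 CPM in arterial and 226, 335 and 268 in capillary cells of ECiKO, GlastiKO and control. Hey1 (2.02 ± 0.258), a Notch and BMP target that represses venous genes, and Msx1 (2.62), a BMP target, were higher as well. Msx1 had 75.6, 73.7 and 49.9 CPM in arterial and 9.12, 8.37 and 12.3 in capillary cells. Its capillary values lay under the level of the low-count filter and its arterial values above it. Its difference and its place among the 3 higher genes are therefore a description. Tgfbr3, the co-receptor betaglycan, was lower (-1.04 ± 0.216, adjusted p = 0.000193), as was Tcf12 (-0.63, adjusted p = 0.0158), whose call ended under DESeq2 and without control or ECiKO replicate 1. In venous cells 1 of the 31 was higher and 6 lower, beside 4.13 and 2.62% of all genes: Tgfb1 (1.03), and Tgfb2 (-1.20), Hey1 (-3.54), Eng (-0.72), Tgfbr3 (-0.78), Htra1 (-1.32) and Tcf4 (-0.41). Of these 7, Tgfb2 alone kept its call in every setting run. Without control replicate 1 the arterial and venous counts were 281 and 158, without ECiKO replicate 1 336 and 168, and without GlastiKO replicate 1 the venous count was 262. Pericyte marker RNA in these zone sums was 25.1 CPM or less. RNA of the neuroblast list stood at 227, 279 and 495 CPM in arterial and 2.79 or less in capillary cells of the 3 libraries, from 2 to 3 of its 10 markers in arterial cells, a list that shares Stmn2 with the arterial panel.

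**Figure D3:**
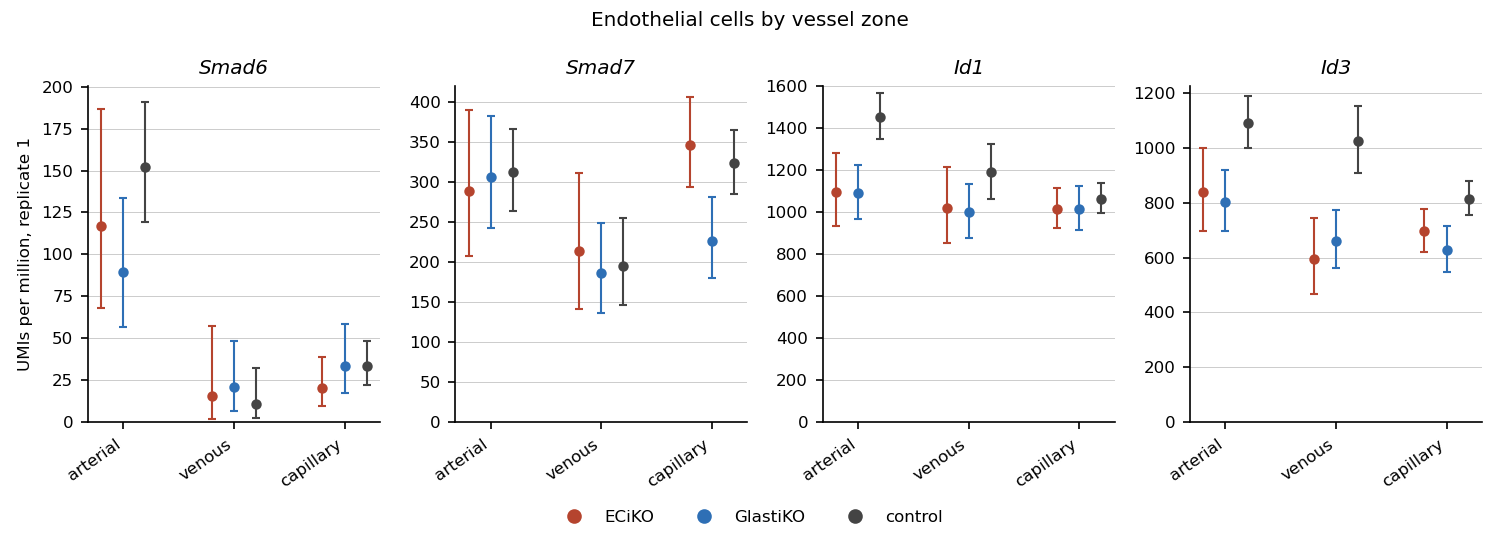
CPM of endothelial members in arterial, venous and capillary cells of replicate 1 of ECiKO, GlastiKO and control, with 95% exact Poisson intervals. Smad6 stands at 89.2 to 152 CPM in arterial cells and at 33.5 or less in the other zones, while the Id1, Id3 and Smad7 values of the zones lie closer together.

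Astroglia of the 2 types differed in which Id gene they carried. Astroglial cells of replicates 2 were divided by markers of telencephalic astroglia, Lhx2 and Mfge8 among them, and by Agt, Slc6a11 and Slc6a9, markers of astrocytes outside the telencephalon, into 54, 204 and 88 telencephalic and 85, 176 and 291 non-telencephalic cells in ECiKO, GlastiKO and control. Cell cycle marker RNA summed to 649, 15.6 and 6.79 CPM in telencephalic and 16.6, 5.77 and 9.73 CPM in non-telencephalic cells of ECiKO, GlastiKO and control, so the ECiKO telencephalic cells stood apart, and its part in their values was not tested. The Id levels are again a description with no test. Id4 had 627, 826 and 862 CPM in telencephalic and 221, 339 and 198 CPM in non-telencephalic cells of ECiKO, GlastiKO and control. The log2 difference of telencephalic from non-telencephalic cells was 1.57 for Id4 in a fit blocked by library. Id2 ran the other way, with 574, 502 and 466 CPM in telencephalic and 720, 673 and 920 CPM in non-telencephalic cells (-0.68). Id3 did so too, with 207, 180 and 154 against 221, 351 and 383 CPM (-1.001). For Id4 and Id2 the types did not overlap over the 3 libraries, and in ECiKO the Id3 values lay within each other's counting intervals (147 to 283 and 158 to 301 CPM). Id4 was the leading Id gene of telencephalic and Id2 that of non-telencephalic cells in each of the 3 libraries.

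Ranbp3l (chr15:8967949-9067335, plus strand) was higher in telencephalic than in non-telencephalic astroglia. It had 69.1, 195 and 102 CPM in telencephalic and 22.1, 81.9 and 18.7 CPM in non-telencephalic cells of ECiKO, GlastiKO and control. The log2 difference was 1.58 in the fit blocked by library, 1.22 without control replicate 2 and 2.22 without GlastiKO replicate 2. No test is given, since the gene was chosen by its group difference in astroglia of these same libraries. Ranbp3l had no UMI in endothelial cells, pericytes, neuroblasts or choroid plexus cells in any library, and 0.430 CPM or less in oligodendrocytes. Smad7 was lower in telencephalic cells, with 31.9, 10.7 and 6.79 CPM against 44.3, 32.3 and 22.5 in non-telencephalic cells. The log2 difference was -1.43 in the fit blocked by library, and -1.68 to -1.16 over 9 other settings. No test is given for it, since Smad7 passed the low-count filter through its non-telencephalic values. Of its telencephalic values only that of ECiKO reached the level of the filter. The side of the threshold on which Smad7 fell also changed under DESeq2 and without control or GlastiKO replicate 2. Oligodendrocyte marker RNA, of the class in which Smad7 is highest, also differed, with 69.1, 93.6 and 49.8 CPM in telencephalic and 304, 144 and 91.3 CPM in non-telencephalic cells (7 to 10 of its 10 markers detected), and its part in the Smad7 value was not tested. Bmpr1a (0.02 ± 0.207) did not pass, and the Id1 difference was -0.06. The fit called 9.71% of 8999 genes, while Bmp4, Bmp6 and Smad6 did not pass the low-count filter.

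Among the other pathway genes 6 of 42 were higher and 5 lower in telencephalic cells, beside 4.61 and 5.1% of all genes. Chrdl1 (3.19 ± 0.365, adjusted p = 9.84e-08) had 197, 133 and 127 CPM in telencephalic and 16.6, 31.2 and 0.749 CPM in non-telencephalic cells of ECiKO, GlastiKO and control, and its fold change was 2.29 without control replicate 2 and 5.40 without GlastiKO replicate 2. Olig1 (-1.45 ± 0.196, adjusted p = 2.07e-06) and Olig2 (-1.48 ± 0.272, adjusted p = 0.000221) were lower, beside the oligodendrocyte marker values above. Tcf4 (0.54), Htra1 (0.47), Smurf2 (1.12) and the activin gene Inhba (1.45) were higher and Hes1 (-0.74) and Skil (-1.39) lower. Each of these 6 lost its call under DESeq2 and in at least 1 other setting. The remaining lower gene was Smad3 (-2.19, adjusted p = 0.00264), which carries TGF-beta and activin signals. Its mean was under 20 CPM, and its values in other settings are not given, so it is not firmer than those 6. Without GlastiKO replicate 2, 476 genes were called in place of 874.

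Between groups, astroglia of GlastiKO replicate 2 had more Ranbp3l than those of control replicate 2, and the Id genes differed less. Each group has 1 library with enough astroglia, so no test was possible, and these differences were among those that chose the members. Ranbp3l stood at 147 CPM in GlastiKO (319 UMIs, interval 132 to 165) and 39.7 CPM in control (73 UMIs, 31.1 to 49.9), a ratio of 3.71 (95% exact interval 2.87 to 4.86, counting error only). In ECiKO it stood at 43.2 CPM (17 UMIs), a ratio to control of 1.09 (0.601 to 1.86). Id4 was at 617 CPM in GlastiKO and 365 in control, a ratio of 1.69 (1.54 to 1.86). Id2 (0.706) and Id3 (0.797) were lower in GlastiKO than in control. Of 6 members with at least 100 UMIs in the pair of libraries, Ranbp3l and Id4 were past a ratio of 1.5, beside 9.17% of 6248 genes. In ECiKO, of 4 such members, Id2 (0.796), Id3 (0.714), Id4 (1.18) and Bmpr1a (0.700) were not past it, beside 14.7% of 3813 genes. In telencephalic cells alone the ECiKO ratios of Id2 and Id3 turned to 1.23 and 1.35 and that of Id4 to 0.728. In the Slc1a2-led and Atp13a4-led clusters, described next, those of Id2 were 1.26 and 1.71 and those of Id3 1.36 and 1.33.

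The share of the types differed between these libraries as well. Telencephalic cells outnumbered non-telencephalic ones in GlastiKO replicate 2 (204 and 176), while in ECiKO and control they were fewer (54 and 85, and 88 and 291). Within telencephalic cells the GlastiKO ratio of Id4 was 0.958 (0.851 to 1.08), that of Id2 1.08 (0.918 to 1.27) and that of Id3 1.17 (0.887 to 1.56). The intervals of all 3 include 1. In non-telencephalic cells the Id4 ratio was 1.71 and that of Id2 0.731. The GlastiKO cells so gated held 78.5 CPM of Lhx2, a telencephalic marker, against 9.73 in control, and its part in these ratios was not tested. Clusters were computed without the members. In the Agt-led one, where Lhx2 was at 8.28 CPM in GlastiKO and 6.45 in control, the Id4 ratio was 1.01 (0.786 to 1.28). In the Slc1a2-led one, with 353 and 375 CPM of Lhx2, it was 0.958 (0.856 to 1.08). The cluster labels are descriptive, and Id4 itself stood among the leading genes of the Slc1a2-led cells.

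The Ranbp3l ratio lay above 1 within both types and within both of these clusters. Telencephalic cells had 195 CPM in GlastiKO and 102 in control, a ratio of 1.91 (1.38 to 2.69), and non-telencephalic cells 81.9 and 18.7 CPM, a ratio of 4.38 that rests on 96 UMIs. In the Slc1a2-led cluster Ranbp3l stood at 189 CPM in GlastiKO and 91.2 in control (279 and 102 cells), a ratio of 2.07 (1.51 to 2.90). In the Agt-led cluster it stood at 45.6 and 18.4 CPM (82 and 185 cells), a ratio of 2.47 (1.29 to 4.77) from 22 and 20 UMIs. In another, shallower cluster led by Atp13a4 it was 35.9 and 31.0 CPM, a ratio of 1.16 (0.255 to 4.32). For comparison, 8.51% of 2878 genes were past 1.5 in telencephalic and 8.12% of 3709 in non-telencephalic cells. In ECiKO Ranbp3l was at 66.9 CPM in the Slc1a2-led cluster, a ratio to control of 0.733 (0.363 to 1.38).

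The share of cells with a Ranbp3l UMI was also compared at equal depth. Cells that reached 1500 UMIs were thinned to that depth. Of these, 3.45, 20.8 and 10.98% of telencephalic cells of ECiKO, GlastiKO and control had one (29, 197 and 82 cells). Before thinning the shares were 14.8, 50.5 and 29.5% over all 54, 204 and 88 cells, a different set. Exact Clopper-Pearson intervals, over cells of 1 library each, were 15.4 to 27.2 and 5.14 to 19.8% for GlastiKO and control. In non-telencephalic cells the thinned shares were 0, 9.47 and 1.90% (26, 169 and 263 cells), with intervals of 5.51 to 14.9 and 0.620 to 4.38% for GlastiKO and control. Over all 85, 176 and 291 of them the shares before thinning were 2.35, 23.9 and 7.56%. These shares describe single libraries, on a difference that chose the gene, and the part of the higher Lhx2 level of the GlastiKO cells so gated was not tested. Oligodendrocytes, which should lack the gene, had thinned shares of 0, 0 and 0.233%. Median depths before thinning were 787, 17574 and 15789 UMIs in those oligodendrocytes and 1678, 5128.5 and 3726.5 in the telencephalic cells. The 0 of 26 ECiKO cells allows a share of up to 13.2% (exact Clopper-Pearson).

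**Figure D4:**
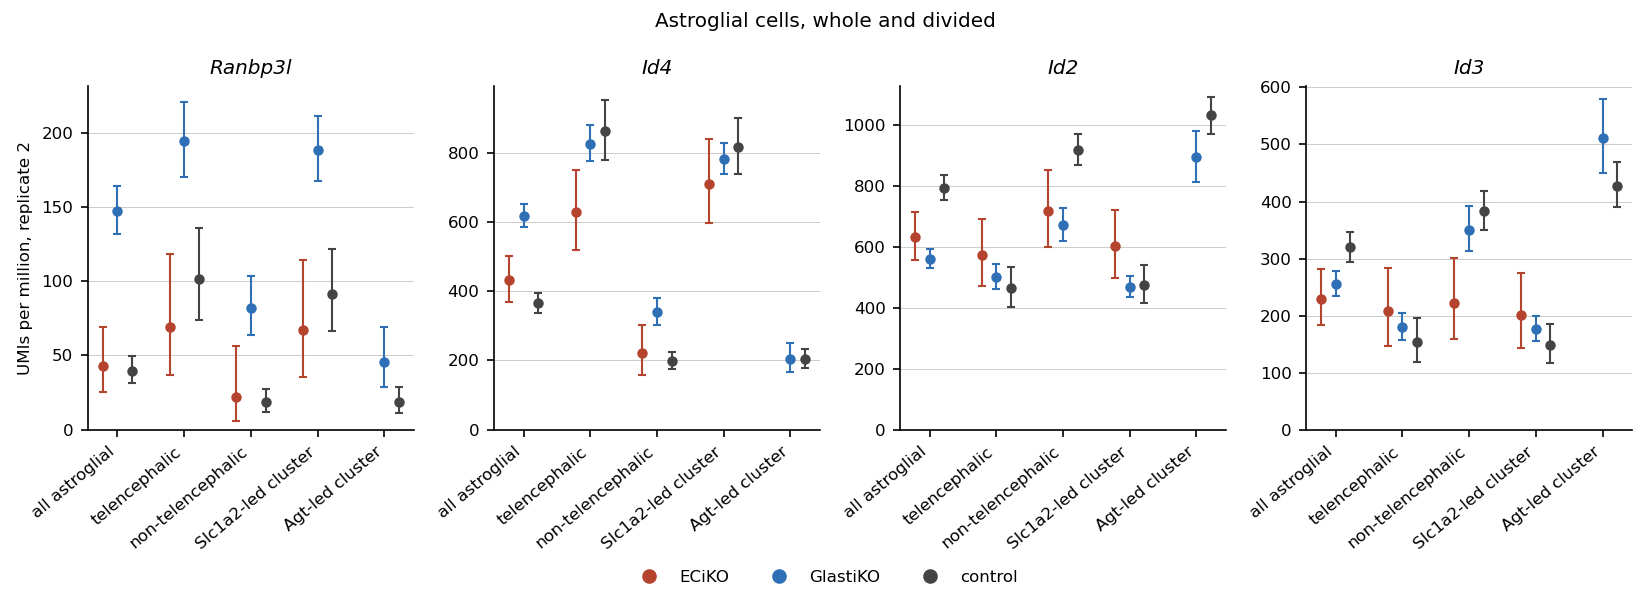
CPM of Id2, Id3, Id4 and Ranbp3l in astroglia of replicate 2 of ECiKO, GlastiKO and control, over all astroglia, by regional type and by cluster, with 95% exact Poisson intervals. Id4 of GlastiKO lies above control over all astroglia (617 and 365 CPM) but not in telencephalic cells (826 and 862 CPM), while Ranbp3l of GlastiKO lies above control in each panel position.

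Genes whose levels over the 19 class and library sums were most like those of a member were found by Pearson's r of log2(CPM + 10) among 7594 genes of at least 20 CPM, without class markers, as a description over sums that share libraries. For Ranbp3l they were Grin2c (r 0.980), Dio2 (0.978) and Hapln1 (0.975), for Id4 Atp2b2 (0.955), Dlgap1 (0.951) and Fgd4 (0.946), and for Id2 Tmem176b (0.879), Csgalnact1 (0.864) and Lxn (0.864). For Id1 they were F11r (0.956), Ifih1 (0.951) and Il10rb (0.947), and for Id3 Lgals3bp (0.965), Agtrap (0.964) and Yap1 (0.956). Id2 had the weakest best match, and no gene stood on the lists of more than 1 member.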

How the data were processed

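Per the labels, sorted cells were digested for 30 minutes at 37 degrees before sorting, and libraries were made with a 10x 3' kit and counted against mm10. The values the authors deposited are un-normalized UMI counts for each gene in each barcode. The Cell Ranger version is 5.0.0 per the file headers and the labels, and 2.1.1 per the submitters' processing notes, which also list Seurat 4. How the sorted fractions were divided between libraries is not given in the sources used here, and the labels call both libraries of a group biological replicates.

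Cells had at least 300 genes and at most 20% mitochondrial UMIs. Scrublet (scanpy 1.11.5) removed 49 doublets, 0.775% of 6323. A cell took 1 of 12 classes when at least 3 of its 10 markers were detected and their UMIs were at least 3 times those of any other class, which placed 93.3% of cells. Leiden clusters (leidenalg 0.10.2; 2000 variable genes without the members, 30 components, 15 neighbours) gave 21 clusters, and 99.2% of gated cells lay in a cluster of their class. Counts were summed per library and class and tested with edgeR 4.0.16 (R 4.3.3; filterByExpr, TMM, quasi-likelihood, Benjamini-Hochberg at 0.05), with DESeq2 1.42.0 beside it, after a check on simulated counts. Standard errors are the absolute log2 fold change over the square root of F, and with 2 to 4 residual degrees of freedom the p-values lean on the spread shared by all genes. Ratios have exact conditional binomial intervals and shares exact Clopper-Pearson ones (scipy 1.17.1), all for counting error only. Positions are those of GENCODE M21 on GRCm38, promoters those of RefSeq.

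Members and lists were chosen with earlier results of these data known. All members are named, and of 67 other pathway genes up to 4 called genes per role by adjusted p from 20 CPM, or the 2 most abundant where none passed; Smad3 falls outside that rule and was named after its values were seen. The values of 1 other pathway gene and 1 subtype marker are not reported here, though both entered the counts and gates. After the data were seen, zones were redefined: the leading raw UMI sum gave 6, 15 and 19 arterial cells in ECiKO, GlastiKO and control replicate 1, so a zone is now the highest mean z-score, ahead by 0.3. The thinning depth, the subtype and cluster ratios and the alternatives without the Plvap-led or Klf2-led cluster were also chosen then.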

Additional observations from a re-analysis of the deposited data

How the results depend on the processing

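Of 1430 alternative values of single log2 fold changes, 1358 kept their side of the threshold, 64 lost the call and 7 gained it. These totals include values given above with no test: Bmp6, Id genes by zone and astroglial type, Ranbp3l, arterial Smad6 and astroglial Smad7. For those they are no support. The 7 that gained a call were 5 of Bmp6 in ECiKO endothelial cells and 2 of Id3 in arterial cells. The remaining 1 changed sign past the threshold: Id1 in venous cells, -0.64 without the Klf2-led cluster, also given with no test. Changes of sign between values that were both uncalled were not counted. Id1 in ECiKO endothelial cells, for example, ranged from -1.42 to 0.24 and was counted as kept. Counts of genes called moved most. For ECiKO in endothelial cells (19) DESeq2 gave 2, a stricter gate and 600 genes per cell 32 each (both without ECiKO replicate 2, then under 20 cells), leaving out the Plvap-led cluster 1, and leaving out single libraries 6 to 34. For GlastiKO (26) DESeq2 gave 2, leaving out the Plvap-led cluster 9, and leaving out single libraries 3 to 34. With the replicate number as a block the counts were 30 and 40. That block lowered the common spread of the fit (edgeR's coefficient of variation) from 17.1 to 13.0%. Libraries of the same number deviated together with correlations of 0.0437, 0.101 and 0.0616 over the 3 pairs of groups. The main fit does not treat the numbers as pairs, although they go with the cell make-up of the libraries. These correlations do not show that the libraries of a group are alike. Leaving out single libraries gave 2723 to 4522 between astroglia and endothelial cells (4593), 281 to 416 for arterial (561), 158 to 262 for venous (394) and 476 to 907 for telencephalic cells (874). DESeq2 gave 266, 164 and 328 in the last 3, and 156 were called for venous cells without the Klf2-led cluster. The causes were not tested.

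Of 216 alternative astroglial ratios to control 177 stayed, 25 moved and 14 turned. ECiKO Id2 (0.796) was 1.23 in telencephalic cells, 1.26 in the Slc1a2-led and 1.71 in the Atp13a4-led cluster, and ECiKO Id3 (0.714) was 1.35, 1.36 and 1.33. GlastiKO Id2 (0.706) was 1.08 in telencephalic cells and 1.16 in the Atp13a4-led cluster. GlastiKO Id3 (0.797) was 1.17, 1.19 in the Slc1a2-led and 1.20 in the Agt-led cluster. GlastiKO Id4 (1.69) was 0.958 in telencephalic cells, 0.958 in the Slc1a2-led and 0.936 in the Atp13a4-led cluster. Of 120 alternative Id shares 117 stayed. ECiKO replicate 2, with 21 endothelial and 162 shallow astroglial cells, limits every ECiKO value.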
